A study of Mus musculus with 6 samples.

Results

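The Mitf locus was described by its H3K27ac peaks, called from ChIP-seq of B16 cells. Mitf (ENSMUSG00000035158.15) lies on the plus strand at chr6:97807052-98021349 of mm10, and every peak over this span or within 100 kb of it was taken. These peaks merged into 72 regions of 182956 in all 4 libraries, in a window of 414298 bp in which Mitf was the only protein-coding gene. B16 is a mouse melanoma line, labelled B16 F10. The cells were seeded at 100 cells per cm2 and collected on day 5 of the progressive pigmentation model, in which the culture darkens after sparse seeding. Low-pigment cells (LP) and high-pigment cells (HP) were separated from such cultures by side scatter, a surrogate of pigment content. All were fixed for 10 minutes in formaldehyde, and the labels name no other treatment or allele. There were 2 H3K27ac libraries of LP and 2 of HP, and 2 IgG libraries of unsorted cells served only as controls for peak calling. The comparison therefore rests on 1 established tumour line, on a sort for light scatter rather than for melanin itself, and on controls that were not sorted.

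Mitf encodes a basic helix-loop-helix leucine zipper factor that binds E-boxes and drives the genes of melanin synthesis, melanosome biogenesis and survival in melanocytes. The gene has several promoters, each with its own first exon spliced to shared downstream exons. Isoforms from the upstream promoters are found in many tissues, whereas the most downstream, melanocyte-type (M) promoter is used in the melanocyte lineage and is bound by PAX3, SOX10, LEF1 with beta-catenin, and CREB. H3K27ac, acetylation of lysine 27 on histone H3, marks active promoters and enhancers.

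The 8 GENCODE transcripts of Mitf start at 4 separate elements, each taken as 1 kb on either side of its transcription start site (TSS). Mitf-207, Mitf-206 and Mitf-202 share the most upstream one, at 97807052 to 97807058. Mitf-203 starts at 97929799 and Mitf-204 at 97940918. The melanocyte-type start is that of Mitf-201, at 97991792, with Mitf-205 and Mitf-208 starting 27 and 129 bp further on. It lies 184740 bp downstream of the first TSS and within intron 2 of Mitf-207, the 10-exon transcript by which introns are numbered here. Positions given below in kb are those of a region's midpoint relative to the melanocyte-type TSS, negative upstream.

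The sequences shown are the promoters at both ends of this arrangement and 5 intronic windows. Among regions called in all 4 libraries, they include the one with the highest HP to LP ratio and the next one downstream, which had the lowest. Also from such regions is an intron 2 window before the M promoter, shown because it holds an E-box. The rest are the intronic regions called in both HP and in neither LP library outside intron 8. Promoters are the 250 bases before a RefSeq TSS of GRCm38.p6, in which 3 Mitf promoters matched. The others are 100 bases on either side of the highest summit, from the same assembly. Capitals mark a match to CATGTG or CACGTG (E-boxes), CTTTGAT (LEF1 and TCF), TTTGTT (SOX core), TGACGTCA (cyclic AMP response element, CRE) or TGANTCA (AP-1) on either strand.
upstream promoter (chr6:97806808-97807057, plus strand): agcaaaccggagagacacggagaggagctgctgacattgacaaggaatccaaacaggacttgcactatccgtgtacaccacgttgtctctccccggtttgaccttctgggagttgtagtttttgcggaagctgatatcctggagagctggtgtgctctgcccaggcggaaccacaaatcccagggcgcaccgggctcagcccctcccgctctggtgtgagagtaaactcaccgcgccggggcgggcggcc
melanocyte-type promoter (chr6:97991533-97991782, plus strand): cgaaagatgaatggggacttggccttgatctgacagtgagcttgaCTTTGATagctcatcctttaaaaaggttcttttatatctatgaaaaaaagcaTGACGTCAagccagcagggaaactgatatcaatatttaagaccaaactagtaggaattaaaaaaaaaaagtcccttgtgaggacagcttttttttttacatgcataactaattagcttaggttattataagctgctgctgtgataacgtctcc
intron 1, -108.5 kb (chr6:97883076-97883276, plus strand): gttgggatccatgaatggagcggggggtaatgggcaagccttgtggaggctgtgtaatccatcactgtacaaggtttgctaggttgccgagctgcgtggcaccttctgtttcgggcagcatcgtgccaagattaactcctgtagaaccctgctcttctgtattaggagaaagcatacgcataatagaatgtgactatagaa
intron 1, -106.4 kb (chr6:97884495-97884695, plus strand): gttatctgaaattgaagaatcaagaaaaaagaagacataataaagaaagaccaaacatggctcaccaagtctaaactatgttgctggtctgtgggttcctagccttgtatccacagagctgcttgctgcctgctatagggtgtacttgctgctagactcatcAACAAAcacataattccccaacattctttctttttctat
intron 2, -10.0 kb (chr6:97981417-97981617, plus strand): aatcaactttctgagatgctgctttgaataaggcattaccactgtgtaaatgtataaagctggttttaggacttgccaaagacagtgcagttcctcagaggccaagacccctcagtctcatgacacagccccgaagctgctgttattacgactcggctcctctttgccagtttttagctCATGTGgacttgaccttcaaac
intron 1, -73.6 kb (chr6:97918038-97918238, plus strand): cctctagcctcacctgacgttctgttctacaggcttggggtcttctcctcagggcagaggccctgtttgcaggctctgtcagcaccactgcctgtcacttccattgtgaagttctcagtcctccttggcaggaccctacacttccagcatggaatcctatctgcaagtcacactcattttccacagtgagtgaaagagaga
intron 2, -27.2 kb (chr6:97964602-97964802, plus strand): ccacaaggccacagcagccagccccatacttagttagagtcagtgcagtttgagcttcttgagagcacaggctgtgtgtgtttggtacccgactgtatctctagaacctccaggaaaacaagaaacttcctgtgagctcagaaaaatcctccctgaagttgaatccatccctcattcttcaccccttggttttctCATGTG

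The melanocyte-type promoter held CTTTGAT and TGACGTCA, at -214 and -162 bp from the GENCODE TSS. Of 32851 RefSeq promoters of the same length, 3.21% held the first and 1.55% the second. The upstream promoter and the RefSeq promoter near the start of Mitf-203 held none of the motifs searched, which also included TCATGTG (the M-box, which contains CATGTG) and TGACG (the CRE core, contained in TGACGTCA). The 2 promoters printed also differed in composition, with 59.6% G and C and 15 CpG in the upstream one and 36.0% and 3 CpG in the melanocyte-type one. The window at -10.0 kb held CATGTG as part of TCATGTG. It was the only one of 11 windows of regions called in all 4 libraries with CATGTG, which 5.22% of the 12080 such windows of the genome held. Of the 25 windows of the locus in regions called in both HP, 5 held CATGTG, against 14.9% of all 182798 regions whose window could be read. Of these 5, 2 were among the 6 regions called in both HP and in neither LP, at -27.2 kb and at 110.7 kb. The others lay in intron 2 at -13.0, -10.0 and -7.1 kb. None of the 25 held TGACGTCA or TGANTCA, against 0.172% and 5.75% of all regions. Of the 25, 1 held CACGTG (2.88% of all regions), 3 held TCATGTG (3.57%) and 1 held CTTTGAT (3.03%). Of the same 25, 2 held TTTGTT (19.0%) and 1 held TGACG (7.06%). These shares are not over a like set, since 81.7% of all regions were called in 1 library. Shares over all regions called in both HP were not available.

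Depth was limited. The libraries held 11467942 to 15353176 fragments, and the median peak of a list had 7 to 12 fragments at its summit. Pileup is given in FPM, the fragments covering a summit per 1000000 fragments of the library, and the highest summit stands for a region. A fragment that covers a summit is not a molecule counted once, as duplicates were kept. Each library pooled many sorted cells, so more cells with the mark and more mark per cell cannot be told apart. As a check of the cell type, all 7 melanocyte markers had a peak at a TSS in every library, while 7 markers of blood, endothelium, epithelium, muscle and liver had one at 1, 1, 1 and 0 genes in LP 1, LP 2, HP 1 and HP 2.

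Peaks covered more of the locus in HP. The lists held 31 and 35 peaks there in the LP libraries and 44 and 36 in the HP libraries. They covered 8589 and 17694 bp in LP against 23832 and 28448 bp in HP, which is 2.07%, 4.27%, 5.75% and 6.87% of the window. Both HP values lay above both LP values. The ratio of the means was 1.99, with 2.77 in replicate 1 and 1.61 in replicate 2, against 1.54, 1.69 and 1.45 over all peaks of the lists. With 2 libraries against 2 the smallest two-sided exact permutation p is 0.333, and this ratio was not tested. The median summit pileup of the locus peaks was 0.785 and 0.847 FPM in LP against 1.18 and 1.23 in HP. In the map of peaks by library the tall ones stood at the most upstream TSS, in intron 1 around -110 kb and around the melanocyte-type TSS.

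**Figure D1:**
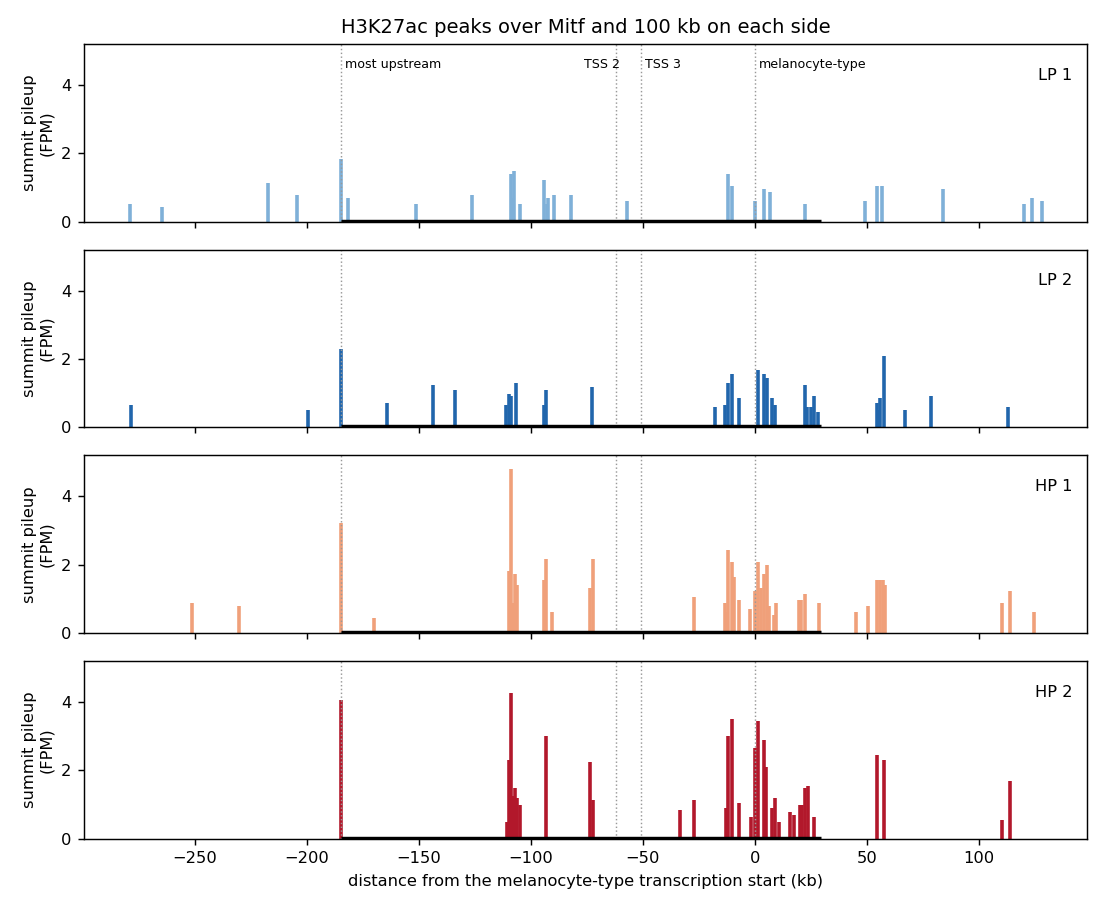
Summit pileup in FPM of every peak over Mitf and 100 kb on each side (vertical lines, 1 panel for each library) against the distance of its summit from the melanocyte-type TSS in kb. Dotted lines mark the 4 TSS elements and the black bar the gene; the highest peak in both HP libraries, at 4.79 and 4.28 FPM, lies in intron 1, and no peak stands at TSS 2 or TSS 3.

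The share of regions found again in other libraries is given beside that of all regions, without a test. Of the 72, 11 (15.3%) were called in all 4 libraries, against 6.60% of all merged regions, and 25 (34.7%) were called in at least both HP libraries, against 14.2%. The locus had 6 regions (8.33%) called in both HP and in neither LP, where 3.94% of all regions had this pattern, and 0 called in both LP and in neither HP, a pattern of 0.249% of all regions. Among regions called in at least both HP, the first pattern was that of 6 of 25 at the locus and 7204 of 25913 over all. On that basis its share was not higher at Mitf. Within replicate 1 there were 22 regions called in HP and not in LP and 16 called in LP and not in HP, and within replicate 2 there were 15 and 12. A further 8 were called in both HP and in 1 LP library (11.1%, against 3.62%), and 4 in HP 2 and 1 LP library (5.56%, against 3.72% called in 1 library of each group). The remaining 43 (59.7%) were called in 1 library, 27 of them in LP and 16 in HP, against 81.7% of all regions. These single-library regions had a median length of 259 bp and summits of at most 1.24 FPM. All 8 regions of the upstream flank were among them.

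The promoters differed in whether a peak was called. At the most upstream promoter, region chr6:97806618-97807959 was called in every library, and its summits held 21 and 35 fragments in LP and 37 and 58 in HP. Scaled to depth these were 1.83 and 2.28 FPM in LP against 3.22 and 4.07 in HP, and the groups did not overlap. Mitf-203 and Mitf-204 had no peak within 1 kb of their TSS in any library.

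At the melanocyte-type promoter, region chr6:97991495-97992349 was called in both HP libraries, at 1.22 and 2.67 FPM, and in LP 1, at 0.610. LP 2 had no peak there, so the region was not tested. The LP 1 peak was 174 bp long and rested on 7 fragments, and those of HP were 576 and 855 bp long with 14 and 38 fragments. Their summits lay 133 bp (LP 1), 183 bp (HP 1) and 48 bp (HP 2) downstream of the TSS. Over the 3 libraries with a peak HP exceeded LP by 1.56 on the log2 scale, and by 1.00 within replicate 1 alone. Relative to the library medians the difference was 0.50. The lowest summit of the LP 2 list held 6 fragments (0.391 FPM), but the number needed for a call differed between sites. At this locus an LP 2 summit of 19 fragments had a -log10 q-value of 1.70, and one of 7 fragments had 2.19. A missing peak therefore gives neither a value nor an upper bound for the level.

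The next region downstream, chr6:97992913-97994605, spans exons 3 and 4 of Mitf-207 and reached into the melanocyte-type window by the HP 1 peak only. It was called in LP 2 at 1.69 FPM and in HP at 2.09 and 3.44, and had no peak in LP 1. At the M promoter and this neighbour each LP library thus lacked 1 of the 2 regions that both HP libraries had.

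Among promoters, the upstream one of Mitf had a low level. Its mean over the 4 libraries was 2.85 FPM, against a median of 5.08 over 9858 genes with a TSS region in all 4, and 17.2% of those promoters were lower. The genes whose promoter values came nearest over the 4 libraries, by Euclidean distance of log2 pileups, were Lpin1, a phosphatidate phosphatase (0.197), Macrod1, a mono-ADP-ribosylhydrolase (0.202), and Nedd4l, a ubiquitin ligase (0.214). Their own log2 ratios of HP to LP were 0.74, 0.93 and 1.00.

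For regions called in all 4 libraries, limma compared log2 pileups of HP and LP over all 12084 of them with Benjamini-Hochberg adjustment. Its standard error was 0.54 on the log2 scale at every region, since limma used a single pooled variance. Nearly all of these regions had higher values in HP, with a median log2 ratio of 0.92. Of the 11 at Mitf, 1 passed an adjusted p of 0.05, against 4.01% of all, and 4 had an unadjusted p under 0.05, against 36.2%. HP lay above LP without overlap at 8 of 11, against 74.8%. The median of the 11 was 0.88, close to that of all regions, and it was -0.13 after each library was centred on its median, with 4 of 11 above 0. Centring moved the median of all regions to -0.09. The 11 differed from the comparison set in composition. The median share of G and C in the summit windows was 51.2% for the 11, against 67.7% for all regions called in all 4 libraries.

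The region that passed lies in intron 1 at -108.5 kb, chr6:97882815-97883672. It had 16 and 14 fragments at its summit in LP and 55 and 61 in HP. Its log2 ratio was 2.00 (95% interval 0.94 to 3.07, limma adjusted p = 0.0358, 0.0492 with the replicate block), the 73rd highest of the 12084. The call was lost under 8 of 11 alternatives. Without LP 1, LP 2 or HP 2 limma's adjusted p was 0.425, 0.336 or 0.0860, and without HP 1 it was 0.00258. Relative to the library medians the log2 ratio was 0.99. This was the highest peak of the whole locus in both HP libraries and stood above the upstream promoter there, at 1.49 and 1.05 times its pileup. In LP it was at 0.762 and 0.400 times.

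The next region called in all 4 libraries, chr6:97884448-97886356 at -106.4 kb, began 775 bp further downstream and differed little between the populations. It had 1.48 and 1.30 FPM in LP against 1.74 and 1.47 in HP. HP 2 lay below LP 1, so the groups overlapped. The log2 ratio was 0.20 (95% interval -0.86 to 1.27, limma adjusted p = 0.723), at rank 11757 of 12084, and it was -0.81 relative to the library medians. The ratio of the first region to this one within a library was 0.941 and 0.700 in LP against 2.75 and 2.90 in HP. The order of the 2 regions was thus opposite in the populations, but in LP 1 it rested on 16 against 17 fragments. In LP 2 the highest summit at -106.4 kb lay at 97885144, apart from those of the other libraries at 97884575 to 97884636. A ratio within a library does not depend on its depth. The pair was chosen after its values were seen, and the smallest exact p for such a ratio is again 0.333. On the other side, chr6:97881813-97882420 at -109.7 kb was called in LP 2 at 0.977 and in HP at 1.83 and 2.31. Between the pair lay chr6:97883861-97884228 at -107.7 kb, which had 0.698 in LP 1 and 0.871 and 1.26 in HP, and no peak in LP 2.

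**Figure D2:**
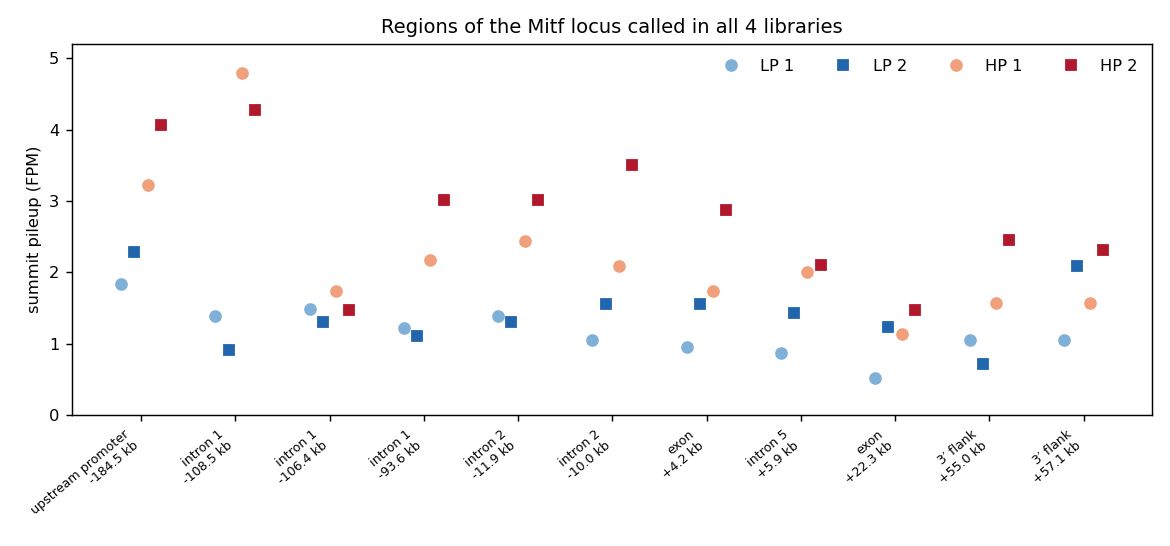
Summit pileup in FPM (y axis) in each library (circles replicate 1, squares replicate 2; blue LP, orange and red HP) at the 11 regions of the Mitf locus called in all 4 libraries, ordered along the gene with their distance from the melanocyte-type TSS. The intron 1 region at -108.5 kb holds the widest gap between LP (1.40 and 0.912) and HP (4.79 and 4.28), and the next one, at -106.4 kb, shows almost none.

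The other region of intron 1 called throughout, at -93.6 kb (chr6:97896564-97899730), was the longest of the locus at 3167 bp. It had 1.22 and 1.11 FPM in LP against 2.18 and 3.02 in HP, without overlap. The LP 1 peak of that height (chr6:97897688-97897893) did not overlap the HP 1 peak with the highest summit (chr6:97898391-97899730). At the site of the former HP 1 had 1.57, and at that of the latter LP 1 had 0.523 and 0.698. The log2 ratio of the region was 1.14 (limma adjusted p = 0.122). Against the upstream promoter of the same library the region stood at 0.667 and 0.486 in LP against 0.676 and 0.741 in HP. This region and the one at -108.5 kb were the 2 of 10 for which that within-library ratio was higher in HP without overlap. No share over all regions was available for this count. At -93.6 kb the nearest values of the groups, 0.667 in LP 1 and 0.676 in HP 1, almost met and came from different sites. Regions with the opposite order included that at -106.4 kb, with 0.810 and 0.571 in LP against 0.541 and 0.362 in HP.

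Intron 2 holds a pair of neighbouring regions ahead of the melanocyte-type promoter. At -11.9 kb (chr6:97979357-97980425) the values were 1.40 and 1.30 FPM in LP against 2.44 and 3.02 in HP. At -10.0 kb (chr6:97980546-97982994) they were 1.05 and 1.56 in LP against 2.09 and 3.51 in HP. Neither pair of groups overlapped, with log2 ratios of 1.01 and 1.08 (limma adjusted p = 0.151 and 0.134). Both ratios were near that of the median region.

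Peaks covered 1204 and 1976 bp of intron 2 in LP against 4515 and 5365 bp in HP, a ratio of means of 3.11, and the median summit pileup was 1.22 and 0.847 in LP against 1.00 and 1.05 in HP. In intron 1 they covered 3290 and 5258 bp in LP against 6606 and 7283 bp in HP, a ratio of 1.62, with median summits of 0.698 and 1.04 in LP against 1.48 and 1.37 in HP. In intron 2 the HP lengths thus lay above those of LP while its median summits lay between them, and in intron 1 both measures were higher in HP without overlap. The intron 2 medians are over unlike sets, 2 and 5 peaks in LP against 8 and 7 in HP. The highest summits of intron 2 were 1.40 and 1.56 FPM in LP against 2.44 and 3.51 in HP. None of these ratios was tested.

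**Figure D3:**
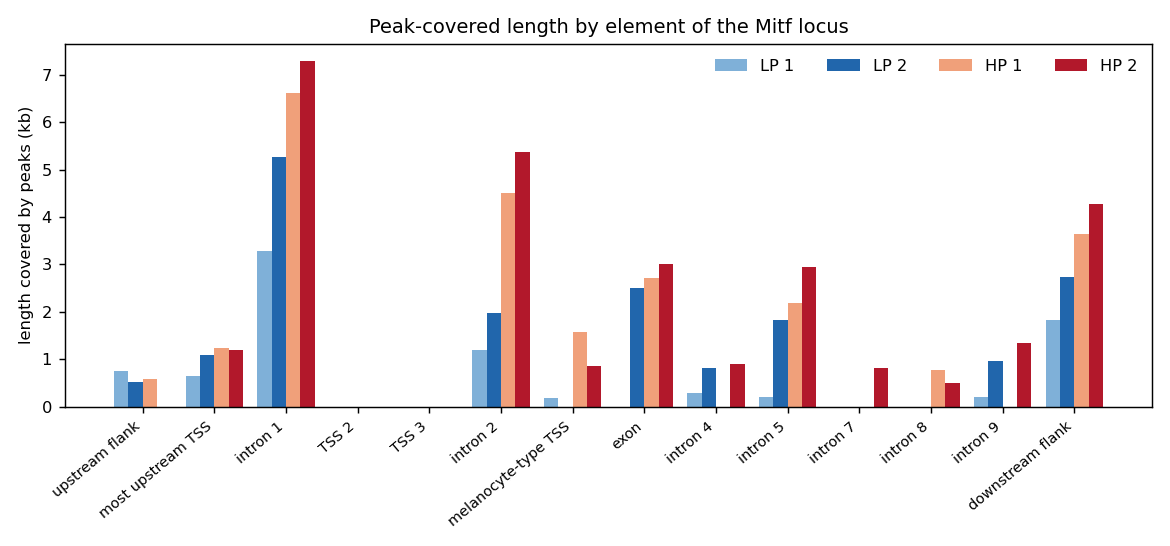
Length covered by called peaks in kb (bars, 1 for each library) at each element of the Mitf locus; elements with no peak in any library other than TSS 2 and TSS 3 are left out. Both HP bars are taller than both LP bars at the most upstream and melanocyte-type TSS and in the exons. The same holds in introns 1, 2, 5 and 8 and in the downstream flank. TSS 2 and TSS 3 have no bar. Peaks are assigned singly, so those of a region can fall to different elements by library. The region at 4.2 kb is exon in HP 1 and intron 4 in LP 1, LP 2 and HP 2. At the melanocyte-type TSS the HP 1 bar includes a peak of the next region, which counts as exon in LP 2 and HP 2.

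Downstream of the melanocyte-type exon, 3 regions within the gene were called in all libraries. The one at 4.2 kb overlaps exon 5 of Mitf-207 (chr6:97995380-97996627) and had 0.959 and 1.56 FPM in LP against 1.74 and 2.88 in HP. The one at 5.9 kb, in intron 5, had 0.872 and 1.43 in LP against 2.00 and 2.10 in HP. The log2 ratios at 4.2 and 5.9 kb were 0.87 and 0.88 (limma adjusted p = 0.198 and 0.195), and neither pair of groups overlapped. At 5.9 kb the LP 1 peak (chr6:97998401-97998610) and the LP 2 peak (chr6:97996718-97997899) did not overlap each other. At 22.3 kb, over exon 9, the values were 0.523 and 1.24 in LP against 1.13 and 1.47 in HP, which overlapped, with a log2 ratio of 0.68 (limma adjusted p = 0.283).

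The downstream flank held a pair of adjacent regions called in all 4 libraries. At 55.0 kb (chr6:98046076-98047482) LP had 1.05 and 0.716 FPM and HP 1.57 and 2.46, a log2 ratio of 1.18 (limma adjusted p = 0.115) without overlap. At 57.1 kb (chr6:98047679-98050062) LP had 1.05 and 2.08 and HP 1.57 and 2.31, a log2 ratio of 0.37 (limma adjusted p = 0.534) with overlap. Here the LP libraries differed from each other more than the groups did, but their values came from different sites. The LP 1 peak (chr6:98048338-98048542) did not overlap the LP 2 peak with the highest summit (chr6:98049065-98049626).

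**Figure D4:**
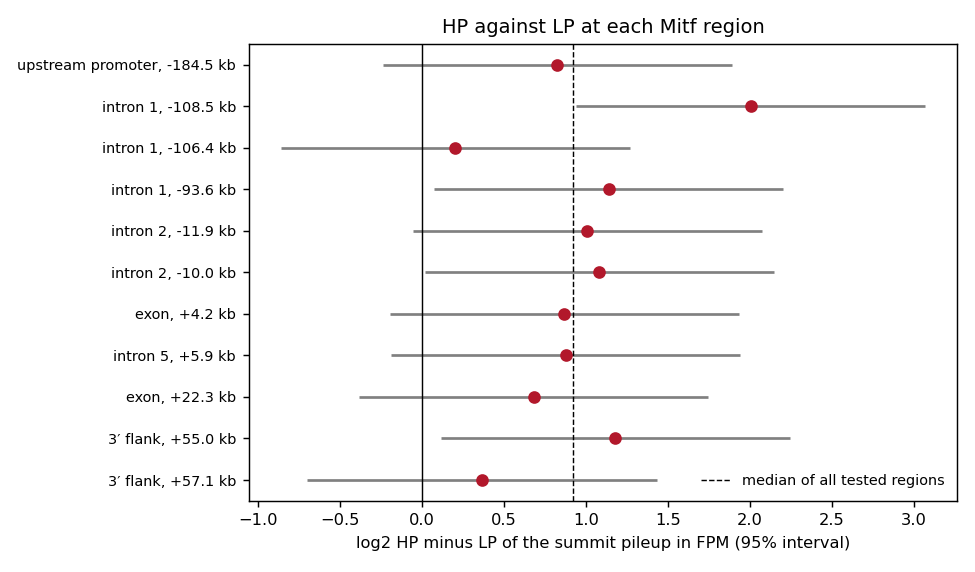
The log2 ratio of HP to LP from limma (points, with 95% intervals) at the 11 regions of the Mitf locus called in all 4 libraries; the solid line is 0 and the dashed line the median of all 12084 tested regions, 0.92. Only the interval of the intron 1 region at -108.5 kb, 0.94 to 3.07, lies wholly above that median.

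The 6 regions called in both HP and in neither LP were short, 278 to 744 bp, and had summits of 0.561 to 2.24 FPM. The strongest lay in intron 1 at -73.6 kb (chr6:97917959-97918399), at 1.31 and 2.24 in HP with 15 and 32 fragments. The region next to it, at -72.7 kb, was called in LP 2 as well, at 1.17, and in HP at 2.18 and 1.12. In intron 2 at -27.2 kb (chr6:97964227-97964970) the HP values were 1.04 and 1.12. Intron 8 held a pair, chr6:98011602-98012013 and chr6:98012377-98012960, each with 0.958 and 0.982 in HP, and LP had no peak in that intron. The last 2 lay in the downstream flank, at 110.7 kb (0.871 and 0.561) and 114.0 kb (1.22 and 1.68). A q-value of at most 0.001 in both HP libraries was reached by 5 of the 6. The 6 were picked by their HP calls, so these q-values are not separate support. No share over all regions with this pattern was available.

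Genes around MITF were read at their promoters. Of 12 pigment genes known as MITF targets, 8 had a promoter region in all 4 libraries and 0 passed limma's adjusted p of 0.05 in either direction, where 4.01% of all tested regions passed as higher in HP. For these 8, 3 had an unadjusted p under 0.05, against 36.2% of all, and the median log2 ratio was 1.03, with Pmel, which encodes the melanosome fibril protein, highest at 1.48 (limma adjusted p = 0.0706) and Gpr143, a melanosomal receptor, lowest at 0.28. Cdk2 shares the Pmel region. Of 6 other targets 5 had such a region, with a median of 0.82 and again 0 calls, and 2 had an unadjusted p under 0.05. Of 10 known regulators of Mitf, 6 had one, with a median of 0.75 and 0 calls, and 2 had an unadjusted p under 0.05. Sox10 had 2.44 and 2.54 FPM in LP against 5.31 and 6.10 in HP (log2 ratio 1.19, limma adjusted p = 0.113), Pax3 had 2.01 and 4.82 in LP against 6.01 and 10.3 in HP (log2 ratio 1.34, limma adjusted p = 0.0895), and Lef1 had no promoter peak in any library.

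Among the relatives that bind the same E-boxes, Tfe3 had 1.05 and 1.89 FPM in LP against 3.05 and 6.31 in HP, a log2 ratio of 1.64 (limma adjusted p = 0.0516), while Tfec had a peak in LP 1 alone. The 4 of 5 relatives with a region in all libraries had a median of 1.22 and 0 calls, against 4.01% of all tested regions. Of these 4, 3 had an unadjusted limma p under 0.05, against 36.2% of all. The medians of these lists stand against 0.92 for all tested regions.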

How the data were processed

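H3K27ac ChIP-seq libraries of LP and HP cells, 2 replicates of each, were grouped by their labels. Per the submitters' processing notes, reads were demultiplexed with bcl2fastq 2.20, trimmed with Trimmomatic 0.33 and aligned to mm10 with Bowtie2 2.5.1, and the authors called narrow peaks with MACS 3.0.0b1 library by library, with duplicates kept, a q-value of at most 0.05, and the unsorted IgG library that carries the same number as control. The deposited pileup is the authors' whole number of fragments covering a summit, without scaling for depth. The authors' MACS output also gives, for each summit, the fold enrichment over local background and the -log10 q-value. The labels give 1% formaldehyde and the study's methods 10%.

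Peaks overlapping by at least 1 bp were merged over the 4 lists with Python 3.11.15 and pandas 2.3.3. A region could thus join peaks that overlapped each other only through a longer peak of another library. Pileups were divided by the library's fragments, in units of 1000000. A region was given to a TSS of Mitf when it reached within 1 kb of it (GENCODE vM21), and otherwise to the exon, intron or flank it overlapped. For covered lengths and median summits by element, each peak was assigned singly by the same rule. limma 3.58.1 in R 4.3.3 compared log2 values over the regions called in all 4 libraries, two-sided, with Benjamini-Hochberg adjustment over all of them and no pseudocount. The merging and the fit were tested on simulated data. Replicate numbers pair the libraries, since a set started from equal DNA amounts per the labels. The replicate differences of LP and HP correlated at 0.0153, over 2 pairs. Nothing says that replicates were separate cultures, so p-values measure the spread between these libraries. Each region at a TSS or called in all 4 libraries was named with its values, those called in both HP and in neither LP with their HP values, and the rest by counts. The members, gene lists and motifs were chosen with earlier results of these data known. Of the promoters most like that of Mitf, those after the nearest 3 are not reported here. Sequences were read with pysam 0.24.0. Alternatives were other scalings, summaries, q-values, windows, gene models, the replicate block and leaving out libraries. The IgG libraries entered only through the authors' peak calls.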

Additional observations from a re-analysis of the deposited data

How the results depend on the processing

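limma called 485 of the 12084 regions higher in HP, and 1 of the 11 at Mitf. With the replicate block, which pairs libraries by number, the counts were 88 and 1, and with a q-value of at most 0.01 they were 332 and 1. Scaling to fragments times fragment length gave 9 and 0. Centring each library on its median, quantile normalization, the mean of the summit pileups and fold enrichment gave 0 and 0 each, where 177, 227, 3253 and 545 regions had an unadjusted p under 0.05 in that direction, and 1, 1, 3 and 1 at Mitf. In the opposite direction, 275 regions were lower in HP at that p after centring and 207 after quantile normalization, against 0 in the fit without either. Leaving out 1 library gave 0 to 6930 regions and 0 to 6 at Mitf. The high end came without HP replicate 1, and every other omission gave 0 and 0, with 1083 to 2015 regions and 1 at Mitf under an unadjusted 0.05. In these fits the lone library of an arm is assumed to vary like the other arm. The cause of these shifts was not tested.

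After centring, 7 of the 11 Mitf regions turned to the other direction, none past the threshold. The log2 ratios were -0.19 at the upstream promoter, -0.81 at -106.4 kb, -0.0027 at -11.9 kb, -0.14 at 4.2 kb, -0.13 at 5.9 kb, -0.33 at 22.3 kb and -0.64 at 57.1 kb. After quantile normalization the same 7 were at -0.22, -0.78, -0.027, -0.19, -0.14, -0.20 and -0.68. The region at -106.4 kb was at -0.043 with the mean of summits. The region at 57.1 kb ranged from -0.13 without LP replicate 1 to 0.86 without LP replicate 2. The region at -108.5 kb stayed at or above 0.99 throughout, with adjusted p-values of 0.0026 to 1.00.

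The count of 6 regions called in both HP and in neither LP was 4 to 6 under other q-values, narrower flanks or lists of equal size. Within 1 replicate set it was 15 to 22, with 12 to 16 regions called in LP and not in HP, and 18.5 as the mean of the 2 sets (replicate block). The covered length of HP over LP was 1.61 to 2.77 in all alternatives, with 2.11 as the geometric mean of the pairs. At the melanocyte-type promoter the log2 ratio was 1.56, 0.50 after centring and 1.00 to 2.13 without 1 library. No value could be had without LP replicate 1 or by quantile normalization, since LP 2 had no peak there. With RefSeq models, an alternative chosen after seeing the data, 3 of 6 TSS elements had a peak, against 2 of 4. Summits of 5 to 61 fragments at this locus limit each ratio to coarse steps.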
